A study of Mus musculus with 33 samples.

Results

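The genes described here are those that make, load and transcribe the peptide-presenting molecules of MHC class I: Psmb8, Psmb9, Psmb10, Tap1, Tap2, Tapbp, H2-K1, H2-D1, H2-T23 and Nlrc5. The set was put together by gene name, with earlier results of these data known, and all 10 have a probe among the 750 endogenous probes of the NanoString nCounter panel, which counts barcoded probes hybridised to RNA without amplification. All 10 were among the 655 probes above background in enough lanes to be tested.

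Total bone marrow (BM) RNA of 33 female C57BL/6 wild type mice aged 6 to 8 weeks was measured, 1 lane per mouse. Mice received the BCL2 inhibitor venetoclax at 100 mg/kg once daily, the JAK1/2 inhibitor ruxolitinib at 180 mg/kg 2 times daily, or the vehicle of either drug, by gavage for 2 days, and were killed on day 1, 3 or 7 post-treatment. The series' own text gives both doses per ml instead of per kg. Each drug group held 3 mice, each vehicle group held 2, and 3 mice were left untreated. The venetoclax vehicle was phosal, polyethylene glycol and ethanol, and the ruxolitinib vehicle was DMSO, polyethylene glycol and water. No mouse carried an engineered allele, and no mouse in these lanes is labelled as irradiated or transplanted. All 11 lanes of a day, including 1 untreated mouse, were in 1 instrument run, so day and run cannot be told apart between days. The run name in the file headers of the day 3 lanes reads day 2, whereas the lane names in those headers and the sample labels give day 3, which is used here.

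Nearly all nucleated cells display peptides from their own proteins on MHC class I, where CD8+ T cells read them and NK cells sense their absence. Proteasomes that carry the inducible subunits encoded by Psmb8, Psmb9 and Psmb10 cut proteins into peptides, the transporter formed by Tap1 and Tap2 carries the peptides into the endoplasmic reticulum, and tapasin, encoded by Tapbp, holds an empty class I molecule at the transporter until a peptide fits. H2-K1 and H2-D1 encode the classical heavy chains and H2-T23 a nonclassical one. Nlrc5 encodes the transactivator of class I genes, and interferons raise transcription of the whole pathway through JAK1, JAK2 and TYK2, which phosphorylate STAT proteins.

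Depth differed widely between lanes. The counts of endogenous probes summed to between 18056 and 466096 per lane (median 158944), and 33.6% to 79.87% of endogenous probes were above background. Totals were under 30000 counts in 2 lanes: venetoclax day 1 replicate 1 and ruxolitinib day 3 replicate 1. Raw counts were lowest for Psmb10 (6 to 123), Nlrc5 (5 to 128) and Tap2 (5 to 211), so these had the largest counting error of the 10. They were above background in 31, 32 and 32 lanes, and the other 7 genes in all 33. All levels below are normalised counts, scaled by housekeeping probes. Levels of a gene are compared only between mice, since probes differ in efficiency. Sums of cell type markers add counts of different probes, and are also compared only between mice. A marker's share of such a sum is a share of counts and not of RNA. The heavy chain genes belong to a family of near-identical copies, and whether these probes also bind RNA of other family members is not given in the sources used here.

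The promoters of 4 of the genes are shown because interferon and JAK-STAT signalling act on this pathway through elements near start sites, and these genes were among those at lower levels on day 1 of ruxolitinib (Psmb8, Tap1, H2-T23), or were not (H2-D1). The windows are from RefSeq (mouse build GRCm38.p6), run 5′ to 3′ on the gene's strand from 250 bases before to 50 after the start site, and exist here for 8 of the 10 genes, all but Tap2 and Nlrc5. Capitals mark letters that match an interferon-stimulated response element core (GAAANNGAA) or the same letters with the spacing moved by 1 base (GAANNGAAA), a gamma-activated site (TTCNNNGAA) or a CCAAT box (CCAAT), all searched on both strands. Tap1 and Psmb9 are divergently transcribed neighbours, and their windows share 275 bases.
Psmb8, chr17:34197945-34198244, plus strand: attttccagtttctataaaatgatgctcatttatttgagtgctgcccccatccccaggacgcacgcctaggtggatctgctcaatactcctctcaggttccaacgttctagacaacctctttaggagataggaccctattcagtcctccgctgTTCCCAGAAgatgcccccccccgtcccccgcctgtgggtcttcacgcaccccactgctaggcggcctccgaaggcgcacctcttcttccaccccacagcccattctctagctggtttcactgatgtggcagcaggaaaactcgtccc
Tap1, chr17:34187306-34187605, plus strand: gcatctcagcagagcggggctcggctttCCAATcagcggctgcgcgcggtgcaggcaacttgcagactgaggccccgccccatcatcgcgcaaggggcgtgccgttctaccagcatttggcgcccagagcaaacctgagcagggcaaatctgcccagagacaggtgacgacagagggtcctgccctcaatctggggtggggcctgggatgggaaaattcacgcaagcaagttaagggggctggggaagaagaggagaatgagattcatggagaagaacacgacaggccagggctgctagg
H2-T23, chr17:36032652-36032951, minus strand: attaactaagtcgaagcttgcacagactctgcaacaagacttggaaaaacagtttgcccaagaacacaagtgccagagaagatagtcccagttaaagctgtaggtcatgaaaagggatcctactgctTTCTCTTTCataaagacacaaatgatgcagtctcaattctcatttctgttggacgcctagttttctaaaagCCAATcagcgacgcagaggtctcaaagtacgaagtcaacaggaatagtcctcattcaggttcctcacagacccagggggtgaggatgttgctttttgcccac
H2-D1, chr17:35262844-35263143, plus strand: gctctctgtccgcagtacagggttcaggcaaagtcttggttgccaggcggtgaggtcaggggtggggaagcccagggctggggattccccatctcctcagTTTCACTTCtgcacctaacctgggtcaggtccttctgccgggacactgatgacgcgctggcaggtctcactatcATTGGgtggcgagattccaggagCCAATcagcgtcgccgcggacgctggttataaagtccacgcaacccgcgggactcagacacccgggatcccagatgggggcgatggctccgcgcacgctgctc

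The Psmb8 window held a match to the gamma-activated site, TTCCCAGAA, starting at -97 from the start site. The H2-T23 window held the response element core on the minus strand, TTCTCTTTC, starting at -123. The windows of H2-D1 and H2-K1 held TTTCACTTC, which matches the moved spacing on the minus strand, and this spacing was added after the data were seen. CCAAT boxes were in the windows of Tap1, Psmb9, Tapbp, H2-K1, H2-D1 and H2-T23, and none of these motifs was in that of Psmb10. Such matches are common: of 32851 RefSeq windows of this length, 8.56% held the core, 7.52% the moved spacing, 8.3% the gamma-activated site and 37.4% a CCAAT box. They describe letters and not binding.

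The clearest pattern was on day 1 of ruxolitinib. Of the 10 genes, 8 were lower in each of the 3 ruxolitinib-treated mice than in both vehicle-treated mice, where 16.3% of the 655 tested probes were. The median log2 fold change of the 10 genes was -0.47, against 0.13 over all tested probes. Nevertheless, 0 of the 10 passed an adjusted p-value of 0.05 in edgeR's quasi-likelihood test, where 2.75% of tested probes did. At an unadjusted p-value of 0.05, 4 of the 10 passed, all lower in ruxolitinib-treated mice: Psmb8, Nlrc5, Tap1 and H2-T23 (13.6% of all tested probes passed in either direction, and 6.72% in this direction). BM RNA comes from a mixture of cells, so fewer cells that express a gene and less of its RNA per cell cannot be told apart.

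**Figure D1:**
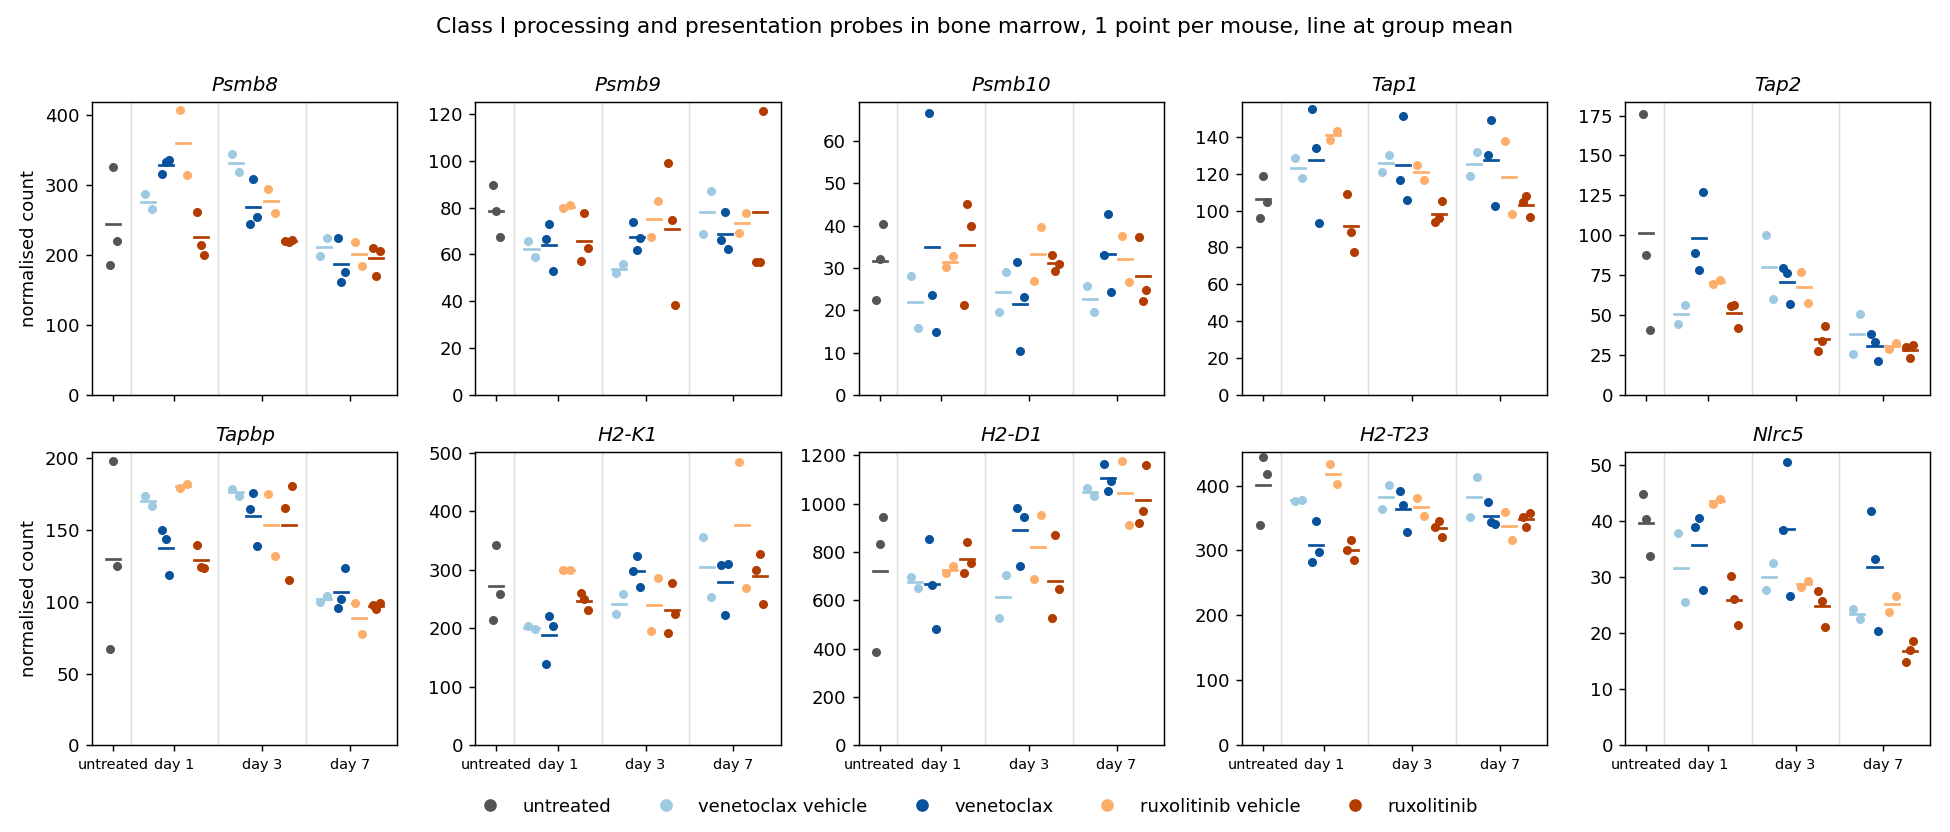
Normalised count of each of the 10 genes in every mouse (vertical axis, from 0), by day and treatment (horizontal axis), with 1 point per mouse and a line at the group mean. On day 1 the ruxolitinib-treated mice lie under both of their vehicle-treated mice for 8 genes, and on day 7 the levels of Tap2, Tapbp and Psmb8 are low in most mice, whatever the treatment.

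Among the inducible proteasome subunits, Psmb8 had the lowest adjusted p-value of the 10 genes on day 1 of ruxolitinib. Its level was 261, 214 and 199 in ruxolitinib-treated mice and 407 and 314 in vehicle-treated mice, with no overlap. The log2 fold change was -0.68 ± 0.21 (SE), 1.6-fold lower, with an adjusted p of 0.0787 by edgeR. In venetoclax-treated mice Psmb8 was at 316, 332 and 335, above both of their vehicle-treated mice, at 287 and 265. This difference was small, with a log2 fold change of 0.25 ± 0.22 (SE) and an adjusted p of 0.804 by edgeR. The difference between the drugs' changes was 0.93 ± 0.30 (SE) on the log2 scale (adjusted p = 0.11, edgeR).

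Psmb9 and Psmb10 encode the other inducible subunits, and neither separated the groups as widely. On day 1 Psmb9 was at 57.1, 77.5 and 62.9 after ruxolitinib and 79.7 and 81.1 after its vehicle. The groups did not overlap, but the highest ruxolitinib-treated mouse came within 3 counts of the lower vehicle-treated one, and the log2 fold change was -0.29 ± 0.26 (SE) with an adjusted p of 0.674 by edgeR. Psmb10 was at 21.3, 45.2 and 39.9 after ruxolitinib and 30.2 and 32.9 after vehicle, so its groups overlapped (log2 fold change 0.17 ± 0.34 SE). After venetoclax, Psmb10 spread from the lowest to the highest day 1 value within 1 group, 66.6, 23.7 and 14.8, and the highest of these is from the lane with 18056 counts in all. Psmb9 was at 66.6, 72.9 and 53.0 after venetoclax and 65.8 and 59.0 after its vehicle, which overlap.

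The levels of both subunits of the peptide transporter lay below vehicle without overlap on day 1 of ruxolitinib, and neither passed the adjusted test. Tap1 was at 109, 88.2 and 77.7 in ruxolitinib-treated and 138 and 143 in vehicle-treated mice. The ruxolitinib group had the lowest mean of all 13 groups, 91.7 ± 16.1 (SD, n = 3), and its vehicle group the highest, 141 ± 3.65 (SD, n = 2). The log2 fold change was -0.62 ± 0.21 (SE) with an adjusted p of 0.118 by edgeR. Venetoclax-treated mice, at 155, 134 and 93.3, spread on both sides of their vehicle-treated mice, at 128 and 118, with a log2 fold change of 0.02 ± 0.23 (SE).

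On day 1 of venetoclax Tap2 was at 88.7, 78.5 and 127, above both vehicle-treated mice at 44.2 and 56.6. The log2 fold change of 0.93 ± 0.36 (SE) was the largest of the 10 genes in this comparison, a 1.91-fold higher level, with an adjusted p of 0.269 by edgeR. After ruxolitinib Tap2 was at 55.9, 56.6 and 42.1, below both vehicle-treated mice at 69.6 and 72.2 (log2 fold change -0.46 ± 0.32 SE, adjusted p = 0.573, edgeR). The difference between these changes was 1.40 ± 0.48 (SE) with an adjusted p of 0.135 by edgeR. The venetoclax-treated mouse at 88.7 rests on 16 raw counts.

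Tapbp, which encodes tapasin, did not pass the test on day 1 with either drug. It was at 139, 124 and 124 after ruxolitinib against 179 and 182 after its vehicle, and neither these groups nor those of venetoclax overlapped. Venetoclax-treated mice had 149.8, 144 and 119 and their vehicle-treated mice 174 and 166. The log2 fold changes were -0.49 ± 0.24 (SE) for ruxolitinib (adjusted p = 0.367, edgeR) and -0.31 ± 0.26 (SE) for venetoclax (adjusted p = 0.779, edgeR).

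Of the heavy chains, H2-T23 lay below both vehicle-treated mice on day 1 with either drug, without passing the adjusted test. Its product presents leader peptides of other class I heavy chains to NKG2A receptors of NK cells. The level was 300.0, 316 and 285 after ruxolitinib and 433 and 403 after its vehicle. The change was -0.48 ± 0.18 (SE) on the log2 scale (adjusted p = 0.187, edgeR). It was also below both vehicle-treated mice after venetoclax, at 283, 345 and 297 against 377 and 378 (log2 fold change -0.28 ± 0.18 SE, adjusted p = 0.666, edgeR). Across all 33 mice H2-T23 had the narrowest range of group means, 1.39-fold from lowest to highest.

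H2-K1 was at 259.8, 250 and 231 after ruxolitinib and 299 and 301 after vehicle on day 1. These groups did not overlap, although the log2 fold change of -0.28 ± 0.24 (SE) was close to its standard error (adjusted p = 0.665, edgeR). Against the day 1 mice of both vehicles together, the change was 0.0071, and H2-K1 was at 204 and 198 after the venetoclax vehicle. H2-D1 did not separate the groups, at 712, 843 and 753 after ruxolitinib and 712 and 740.5 after vehicle (log2 fold change 0.08 ± 0.27 SE). Venetoclax-treated mice had 854, 662 and 482 and overlapped their vehicle-treated mice, at 697 and 651.

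Nlrc5, the transactivator, had the most negative day 1 change with ruxolitinib among the 10 genes. Its level was 30.1, 26 and 21.3 in ruxolitinib-treated mice and 43 and 43.8 in vehicle-treated mice, 1.69-fold lower. The log2 fold change of -0.75 ± 0.25 (SE) had an adjusted p of 0.112 by edgeR. After venetoclax, Nlrc5 was at 38.8, 40.5 and 27.6 with its vehicle at 37.8 and 25.5, which overlap (log2 fold change 0.22 ± 0.30 SE). The difference between the drugs' changes was 0.98 ± 0.39 (SE) (adjusted p = 0.216, edgeR).

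Across the 10 genes venetoclax showed no common direction on day 1. The log2 fold changes were above 0 for 6 and below 0 for 4, with a median of 0.05 against -0.02 over all tested probes. Tap2 and Psmb8 were higher in all venetoclax-treated than in all vehicle-treated mice (11.8% of tested probes were), and Tapbp and H2-T23 were lower (15.7% were). At an adjusted p-value of 0.05, 0 of the 10 passed, where 0.153% of tested probes did, and Tap2 alone passed at the unadjusted level, where 10.4% did. The difference between the drugs' changes was above 0 for 9 of the 10 genes, with a median of 0.29 against -0.12 over all tested probes. Again 0 of 10 passed (1.68% of tested probes did), and at the unadjusted level 4 did, Psmb8, Tap2, Nlrc5 and Tap1 (13.4% did).

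**Figure D2:**
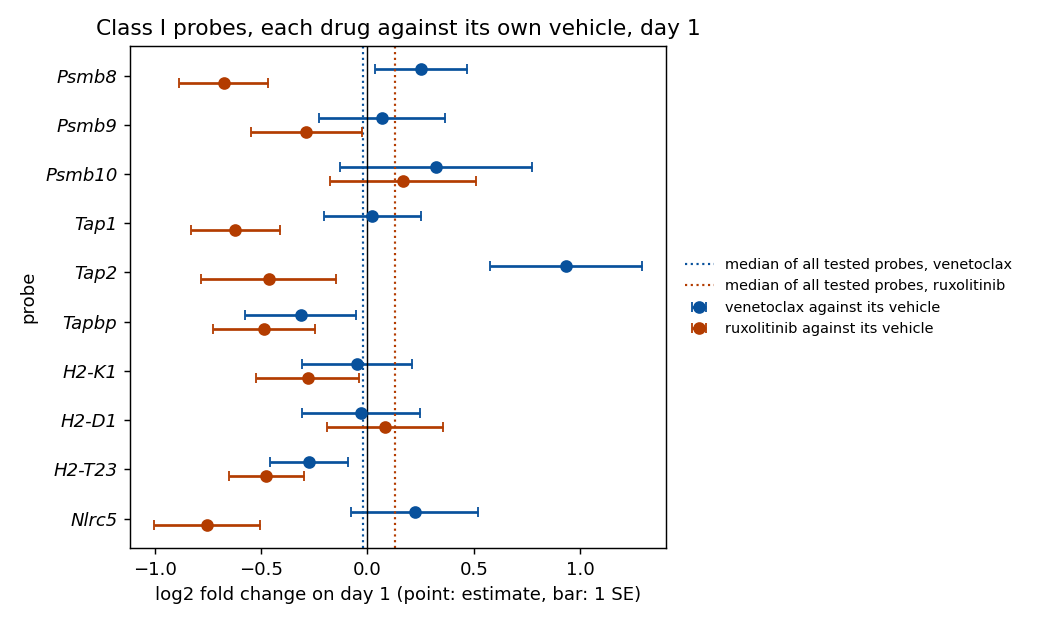
Log2 fold change of each gene on day 1 (horizontal axis) for venetoclax (blue) and ruxolitinib (orange-brown), each against its own vehicle, with bars of 1 SE and dotted lines at the median of all tested probes. The ruxolitinib points of 8 genes lie below 0, down to -0.75 for Nlrc5, and the venetoclax points centre near 0 with Tap2 at 0.93.

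The vehicle group of the day 1 ruxolitinib comparison was itself high. Its mean was the highest of the 13 groups for 6 of the 10 genes, Psmb8, Psmb9, Tap1, Tapbp, H2-T23 and Nlrc5, and for 5.95% of the 655 tested probes. Psmb8, for instance, was at 407 and 314 there, at 287 and 265 with the venetoclax vehicle of the same run and at 186 in that run's untreated mouse, whose lane stood apart as described below (the other untreated mice were at 326 and 219). Nlrc5 was at 43 and 43.8, 37.8 and 25.5 and 44.8 in the same order, so for this gene the untreated mouse lay with the ruxolitinib vehicle. Against the 4 vehicle-treated mice of day 1 together, the median of the 10 genes was -0.31, against 0.16 over all tested probes, and 0 of 10 passed, where 30 of 655 did. With these pooled vehicles the day 1 change of Tap2 with ruxolitinib was -0.22, that of Psmb9 -0.10, and that of Psmb8 with venetoclax 0.06. The difference between the drugs' changes was then 0.55 for Psmb8, 0.50 for Nlrc5 and 0.91 for Tap2, and its median over the 10 genes was 0.07. The vehicle groups were not tested against each other.

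The calls depended on how the spread between mice was estimated. The model used all 13 groups, which share 1 estimate of the spread. When only the 2 groups of day 1 ruxolitinib were fitted, 5 genes passed at an adjusted p-value of 0.05, all lower in ruxolitinib-treated mice: Psmb8 (adjusted p = 0.00501, edgeR), Tap1 (0.0122), H2-T23 (0.0156), Tapbp (0.0187) and Nlrc5 (0.0201). In that fit 77 of all tested probes passed, against 18 in the model of all groups. The fold changes were nearly the same in both fits, -0.67 and -0.68 for Psmb8. DESeq2 and limma called 0 of the 10 genes in all 14 comparisons, and on day 1 of ruxolitinib they called 15 and 10 of the 655 tested probes. In the edgeR model of all groups 0 of the 10 genes were called in the 14 comparisons, with 16 of 140 gene and comparison pairs under an unadjusted p-value of 0.05, where 738 of 9170 pairs (8.05%) were over all tested probes.

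On day 3 the ruxolitinib changes were closer to 0 for most genes, a difference from day 1 that was not tested. All 10 log2 fold changes were below 0, with a median of -0.22 against 0.02 over all tested probes, and 5 genes were lower in all ruxolitinib-treated than in both vehicle-treated mice (7.94% of tested probes were): Psmb8, Tap1, Tap2, H2-T23 and Nlrc5. Tap2 stood out, at 27.5, 33.6 and 43.4 after ruxolitinib and 77.1 and 57.6 after its vehicle. The change was -0.88 ± 0.37 (SE) on the log2 scale, and Tap2 alone was under an unadjusted p-value of 0.05 (4.73% of tested probes were), with an adjusted p of 0.865 by edgeR. The lowest of these mice, in the lane with 26881 counts in all, had 5 raw counts of Tap2, which was not above background. In the adjusted test 0 of 10 passed, and 0.153% of tested probes did. On the same day all 7 B cell markers were below 0 with ruxolitinib, 5 of them under an unadjusted p-value of 0.05, and summed to 302 to 391 against 583 to 623. Tfrc, the transferrin receptor abundant in erythroid precursors, was at 487 to 641 against 347 to 379, without overlap, a log2 fold change of 0.63 ± 0.23 (SE, adjusted p = 0.608) by edgeR. Of the T cell markers, 6 of 7 were below 0, 1 of them under an unadjusted p-value of 0.05. All 3 stem and progenitor markers and 6 of 7 markers of neutrophils and their precursors were above 0. The sums of these further lists overlapped between drug and vehicle. The part of these shifts in the class I levels was not tested.

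Psmb8 on day 3 was at 220.1, 218 and 222 after ruxolitinib, against 294 and 259.5 after vehicle. Tap1 was at 93.6, 96.1 and 105 against 125 and 117, and Nlrc5 at 27.5, 25.7 and 21.1 against 28.2 and 29.2. The groups of Psmb8 and Tap1 lay apart, whereas the highest ruxolitinib-treated mouse for Nlrc5 came within 1 count of the lower vehicle-treated mouse. That mouse, in the lane with 26881 counts in all, had 5 raw counts of Nlrc5, which was not above background. Its Psmb8, at 220.1, rested on 40 raw counts, and its Tap1, at 93.6, on 17. After venetoclax on day 3, H2-D1, H2-K1 and Psmb9 were higher in all 3 mice than in both vehicle-treated mice, where 13% of tested probes were. H2-D1 was at 984, 744 and 945 against 526 and 704, H2-K1 at 298, 324 and 271 against 225 and 259 and Psmb9 at 74.0, 61.8 and 67.0 against 51.9 and 56.0. Psmb8 was lower in all 3 (13.1% of tested probes were), at 244, 308 and 253 against 344 and 319. None of the 10 passed the adjusted test (lowest adjusted p = 0.482, edgeR). In that comparison 0.0% of tested probes passed, although 70 of 655 were under an unadjusted p-value of 0.05. The difference between the drugs' changes on day 3 gave 0 of 10, with 0.153% of tested probes called.

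Markers of several cell types also differed from vehicle on day 3 of venetoclax. The 7 T cell markers were all below 0 and summed to 35.7 to 46.3 against 75.6 to 104, without overlap. The NK cell markers summed to 55.6 to 67.9 against 41.5 to 52.5, also without overlap, although 3 of the 5 were below 0 and 2 above. Of the 7 markers of neutrophils and their precursors, 5 were above 0, all of them at an unadjusted p-value under 0.05 (median log2 fold change 0.84), while their sum, mostly S100a8, overlapped between the groups. Plasma cell markers summed to 131 to 147 against 92.8 to 106, without overlap, with 2 of 3 above 0. The sums of B cell and of stem and progenitor markers overlapped, with 5 of 7 B cell markers below 0, 2 of them under an unadjusted p-value of 0.05, and all 3 stem and progenitor markers above 0. Over all tested probes 70 of 655 were under that unadjusted level. None of these markers passed the adjusted test, and their part in the class I levels was not tested.

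On day 7 the ruxolitinib changes were below 0 for 8 of 10 genes, where 48.1% of tested probes were. Their median was -0.11, and 0.00287 without ruxolitinib replicate 2. Nlrc5 alone was lower in all ruxolitinib-treated than in both vehicle-treated mice (9.62% of tested probes were). It was at 14.8, 17.0 and 18.6 against 23.8 and 26.6, and the ruxolitinib group mean, 16.8 ± 1.95 (SD, n = 3), was the lowest of the 13 groups. The ruxolitinib-treated mouse at 18.6 had 6 raw counts of Nlrc5, and the vehicle-treated mouse at 26.6 had 13. With venetoclax 0 of the 10 genes were separate from vehicle on day 7, where 6.56% of tested probes were higher and 10.7% lower in all venetoclax-treated mice. None of the 10 passed in either drug (0.153% of tested probes passed in each) or in the difference between them (0.305%). B cell markers were lower on day 7 of ruxolitinib, with a sum of 245 to 333 against 527 to 532, all 7 below 0 (median log2 fold change -0.88), 4 of them under an unadjusted p-value of 0.05, where 23 of 655 tested probes were, and none past the adjusted one. On day 7 of venetoclax all 7 T cell markers were below 0, with a sum of 40.9 to 68.8 against 81.3 to 135, and the NK cell markers summed to 48.1 to 83.0 against 42.1 to 42.6, with 3 of 5 above 0. Several of these NK cell markers were near background in many lanes, as given for day 3. Sums of the other lists overlapped between drug and vehicle on day 7. With ruxolitinib all 7 markers of neutrophils and their precursors (median 0.27) and all 6 of monocytes and macrophages (median 0.05) were above 0. All 3 plasma cell markers and 6 of 7 T cell markers were below 0 with ruxolitinib. With venetoclax 6 of 7 markers of neutrophils and their precursors were below 0 (median -0.12). The part of these shifts in the class I levels was not tested.

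**Figure D3:**
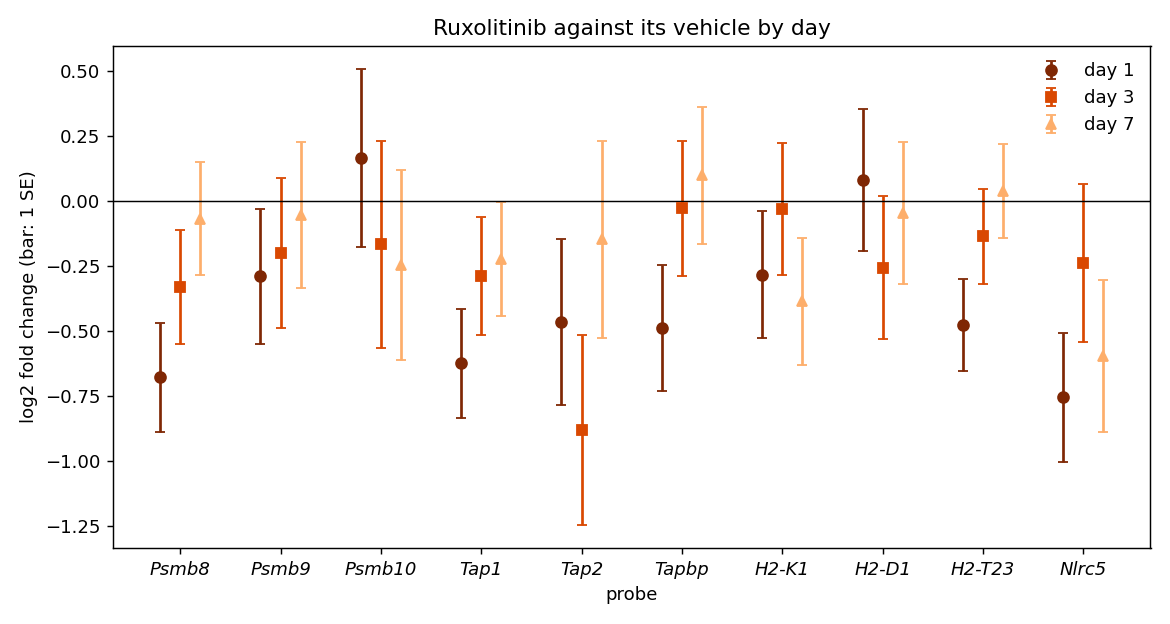
Log2 fold change of each gene in ruxolitinib-treated against vehicle-treated mice (vertical axis) on days 1, 3 and 7, with bars of 1 SE. Psmb8 goes from -0.68 on day 1 to -0.33 on day 3 and -0.07 on day 7, and Nlrc5 from -0.75 to -0.24 and -0.59. Both stay below 0 on all days, as do Tap1, Tap2, Psmb9 and H2-K1.

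Taking the mean of the 3 days, all 10 genes were below 0 with ruxolitinib, where 43.8% of tested probes were, and the median was -0.21 against 0.04 over all probes. Of the 10, 4 were under an unadjusted p-value of 0.05 (8.85% of tested probes were). These were Nlrc5 at -0.53 ± 0.16 (SE), Tap1 at -0.38 ± 0.13 (SE), Psmb8 at -0.36 ± 0.12 (SE) and Tap2 at -0.50 ± 0.21 (SE), with adjusted p-values by edgeR of 0.118, 0.16, 0.18 and 0.386. None passed, and 1.22% of tested probes did. The day 1 mice are part of this mean, so it is not separate evidence. In the same mean all 7 B cell markers were below 0, and 1 of them passed and fell, Pax5, a transcription factor of the B lineage, at -0.83 ± 0.21 (SE, adjusted p = 0.0264) by edgeR. With venetoclax the mean changes ran from -0.15 to 0.26, and 0 of the 10 passed, where 2.9% of tested probes did. The markers that passed in that mean, all lower, were the T cell receptor complex gene Cd3d, at -0.94 ± 0.23 (SE, adjusted p = 0.0153), Cd8a, given below, and the B cell gene Cd22, at -0.80 ± 0.23 (SE, adjusted p = 0.0476), by edgeR.

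Whether the day 1 change differed from that on day 7 was tested directly. For ruxolitinib the difference was most negative for Psmb8, -0.61 ± 0.30 (SE), Tapbp, -0.59 ± 0.36 (SE), and H2-T23, -0.52 ± 0.25 (SE). Their adjusted p-values by edgeR were 0.505, 0.653 and 0.505, so 0 of 10 passed (1.53% of tested probes did). The B cell marker Ms4a1 passed, with a difference of 2.01 ± 0.48 (SE, adjusted p = 0.0148) by edgeR, and all 7 B cell markers were above 0. For venetoclax 0 of 10 passed and 0.0% of tested probes did, with 37 of 655 under an unadjusted p-value of 0.05. Among these was Tap2, with a difference of 1.14 ± 0.55 (SE).

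Some genes differed between instrument runs by as much as between drug and vehicle. Tap2 ranged from 42.1 to 176 (median 69.6) in the 11 lanes of the day 1 run, from 27.5 to 100.3 (median 59.9) in that of day 3 and from 21.2 to 50.6 (median 31.1) in that of day 7. Tapbp was at 77.9 to 125 (median 99.4) in the day 7 run, against medians of 144 and 174 in the earlier runs. Psmb8 was at 161 to 225 (median 205) in the day 7 run, against medians of 287 and 259. H2-D1 went the other way, at 912 to 1174 (median 1053) on day 7 against 384 to 854 (median 712) and 526 to 984 (median 744). The untreated mouse of each run had Tap2 at 176, 87.4 and 40.5 and H2-D1 at 384, 833 and 944, in the order of the runs. Drug and vehicle mice compared above were always in the same run.

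**Figure D4:**
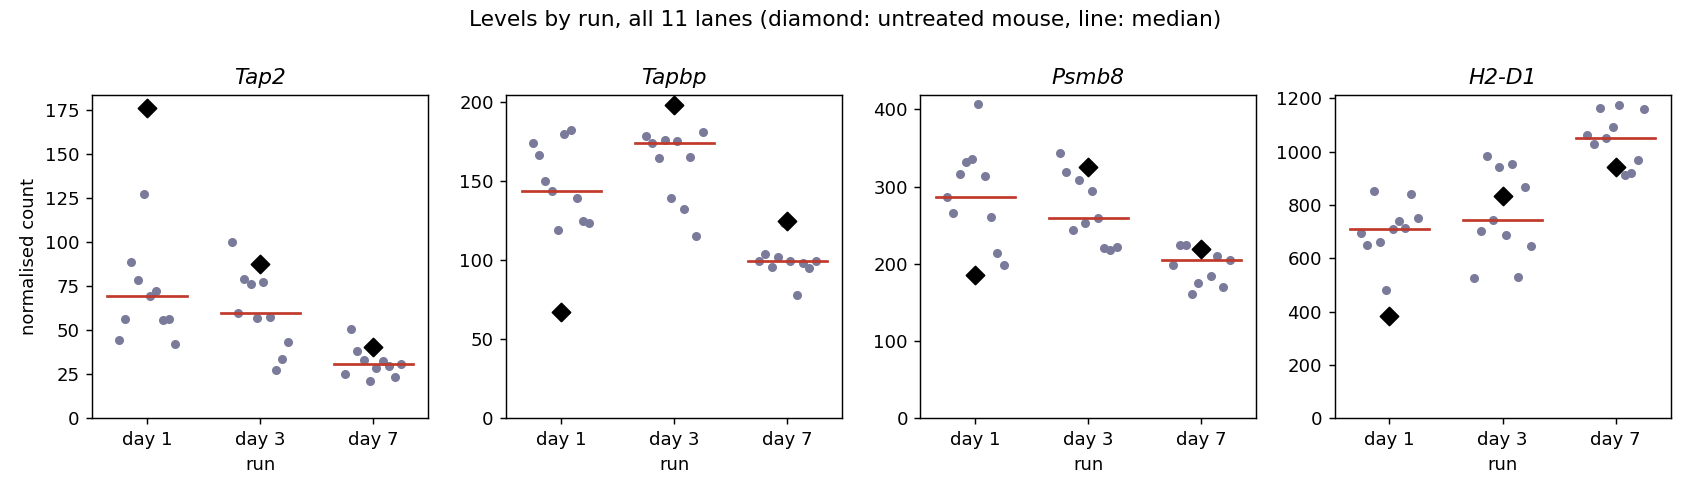
Normalised counts (vertical axis, from 0) of Tap2, Tapbp, Psmb8 and H2-D1 in the 11 lanes of each run, with the untreated mouse as a diamond and the median as a line. The day 7 run has the lowest medians of Tap2 (31.1), Tapbp (99.4) and Psmb8 (205) and the highest of H2-D1 (1053).

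Vehicle alone was compared with no treatment using the mean of the 6 vehicle groups. Tap2 was lower after vehicle, with a log2 fold change of -0.95 ± 0.25 (SE) and an adjusted p of 0.108 by edgeR, and no tested probe had a lower one. The vehicle-treated mice ranged from 25.4 to 100.3, and the 3 untreated mice had 176, 87.4 and 40.5, each in a different run. The value turned on single untreated mice: without replicate 1 it was -0.465 (adjusted p = 0.822, edgeR), and without replicate 3 it was -1.25 and passed (adjusted p = 0.00669, edgeR), alone among the 655 tested probes. The other 9 genes were between -0.42 for Nlrc5 and 0.22 for Tap1. None of the 10 passed, and neither did any tested probe (0.0%), although 75 of 655 were under an unadjusted p-value of 0.05 (11.5%), Tap2 among them.

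The untreated mouse of the day 1 run stood apart from the other untreated mice in several genes. Its lane held 47977 endogenous counts, with 38.53% of probes above background and the highest positive control total of the 33 lanes, 19126, and the part of this in its levels was not tested. It had the highest Tap2 of the 33 mice, the lowest Tapbp, at 67.2, and the lowest H2-D1. Its Psmb8, at 186, was below all other mice of that run, ruxolitinib-treated mice included.

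Other genes of the class I pathway did not pass the test in any of the 14 comparisons. The panel held 8 from a list of further processing genes, nonclassical and class I-like heavy chains (Psmd7, H2-M3, H2-Q1, H2-Q2, H2-Q10, Mr1, Cd1d1 and Cd1d2), of which 7 were tested. On day 1, 0 of the 7 passed with either drug, and 5 were below 0 with ruxolitinib (median -0.06), where 40.9% of all tested probes were. On day 3 all 7 were below 0 with ruxolitinib, with a median of -0.35 and none passing, where 48.2% of all tested probes were below 0 with a median of 0.02. H2-Q2, a nonclassical heavy chain, was at 0.63 to 2.26 normalised counts after ruxolitinib on day 1 and 1.83 to 3.42 after vehicle. It was not above background in any of the 3 ruxolitinib-treated mice, at 1 to 4 raw counts, and was above it in 1 of 2 vehicle-treated mice, so no fold is given.

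Of 15 interferon, JAK-STAT and NF-kappaB regulators of class I transcription, 8 were above and 7 below 0 on day 1 of ruxolitinib, with a median of 0.03 and none passing, where 40.9% of all tested probes were below 0, the median was 0.13 and 2.75% passed. In the mean of 3 days of venetoclax, 1 of the 15 passed and fell, where 2.9% of all tested probes passed, all 19 of them lower. This was Rela, an NF-kappaB subunit, at -0.48 ± 0.14 (SE, adjusted p = 0.0417) by edgeR, with 22.2 to 44.2 in venetoclax-treated and 61.5 to 66.1 in vehicle-treated mice on day 1. The venetoclax-treated mouse in the lane with 18056 counts in all had 4 raw counts of Rela, which was not above background.

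Of 10 tested receptors that read class I, 6 were above and 4 below 0 on day 1 of ruxolitinib, where 40.9% of all tested probes were below 0. None of the 10 passed, where 2.75% of all tested probes did. Klrc2, an activating partner of CD94 on NK cells that binds the H2-T23 product, was at 2.19 to 3.77 normalised counts after ruxolitinib against 8.22 to 9.16 after vehicle (adjusted p = 0.118, edgeR). It was above background in 1 of the 3 ruxolitinib-treated mice and in both vehicle-treated mice, so no fold is given. Klra7, an NK cell receptor of the Ly49 family, was at 4.39 to 12.4 against 11.6 to 14.7, with a log2 fold change of -0.62 ± 0.37 (SE, adjusted p = 0.483) by edgeR. No fold is given either for Klra1, with 1 to 5 raw counts and not above background in any of the 5 mice, or for Cd8b1, which was above background in 2 of the 3 ruxolitinib-treated mice and in 0 of the 2 vehicle-treated mice. In the mean of 3 days of venetoclax 9 of the 10 receptors were below 0, where 43.7% of all tested probes were. Of these 1 passed and fell, Cd8a, the coreceptor of class I-restricted T cells (adjusted p = 0.014, edgeR), in the comparison where 2.9% of all tested probes passed. Cd8a was not above background in any venetoclax-treated mouse of the 3 days, at 1 to 4 raw counts, and was above it in all of their vehicle-treated mice, so the size of its change is not given.

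Markers of several cell types differed between drug-treated and vehicle-treated mice on day 1, and sums of markers are given with the count of markers on each side of 0, since abundant markers carry a sum. None of these markers passed the test on day 1. With ruxolitinib the summed level of 5 NK cell markers was 29.5 to 32.8, against 51.3 to 55.5 with vehicle, and 4 of the 5 were below 0. Prf1, one of these 4, was above background in 5 of 33 lanes. The 7 T cell markers summed to 72.8 to 77.1 against 65.0 to 66.8, with 5 of 7 above 0, of which Cd5 was above background in 9 of 33 lanes. The 7 B cell markers summed to 654 to 738 against 602 to 609.9, but only 4 were above 0 (median log2 fold change 0.23), with Ms4a1 at 0.88 and Pax5 at -0.29. The sum and the list went opposite ways for neutrophils and their precursors. Their 7 markers summed to 76770 to 89241 against 94986 to 101810, without overlap, and S100a8, which made up 75.1% to 95.8% of this sum over all lanes, was at -0.26, whereas 5 of the 7 markers were above 0 (median 0.58).

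Monocyte and macrophage markers summed to 459 to 558 against 510.1 to 592, with overlap, and 4 of 6 were below 0. The 3 stem and progenitor markers were at 39.9 to 41.4 against 23.8 to 35.3 and the 3 plasma cell markers at 122 to 141 against 100.3 to 120.0, each with 2 of 3 above 0. Tfrc, the sole erythroid marker on the panel, was at 259 to 355 against 401 to 441. The part of these shifts in the class I levels was not tested.

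With venetoclax on day 1 the B cell markers summed to 422 to 449.7 against 480.4 to 584, and 5 of 7 were below 0 (median -0.50). Cd79a and Pax5 were above 0, at 0.09 and 0.04. The 7 T cell markers summed to 34.3 to 77.6 against 58.2 to 69.1, with overlap, and 6 of the 7 were below 0. Tfrc was at 266 to 283 against 417 to 474, without overlap, a log2 fold change of -0.71 ± 0.23 (SE, adjusted p = 0.0999) by edgeR. The NK cell markers summed to 32.4 to 94.3 against 31.1 to 39.9, with overlap, while 3 of the 5 were below 0. Monocyte and macrophage markers summed to 569 to 622 against 464 to 546, without overlap, while 4 of the 6 were below 0. The 3 plasma cell markers were all above 0 and the 3 stem and progenitor markers all below 0, with overlapping sums. Of the plasma cell markers, Tnfrsf17 was above background in 6 and Prdm1 in 10 of 33 lanes. The neutrophil list also had overlapping sums, with 5 of 7 above 0. On day 3 of ruxolitinib the NK cell markers summed to 24.8 to 33 against 35.5 to 43.8, with 3 of 5 below 0. All 7 markers of neutrophils and their precursors were above background in 33 lanes. With no lane of another tissue to compare, the marrow label was not tested.

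The 10 genes followed each other loosely from mouse to mouse. Over the 33 mice, with each run centred on its mean, the 45 pairs had a median Pearson r of 0.15, against 0.06 over all pairs of tested probes, and ranged from -0.31 to 0.61. The closest pairs were Tap1 with Nlrc5 (0.61), Tap1 with Psmb8 (0.61), Tapbp with Psmb8 (0.58) and Psmb8 with H2-T23 (0.54). The most opposed was Tap2 with H2-D1. Outside the set, the probes most like its mean were Ikzf1 (0.64), Zbp1 (0.61), H2-M3 (0.59), Ncr1 (0.57) and Ccl5 (0.56). These values are descriptions, since mice of all groups enter them and share the treatments, the lane depth and the scaling.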

How the data were processed

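The deposited values are raw barcode counts per probe, left unnormalised by the authors, 1 lane for each of 33 mice, control probes included. Groups came from the sample labels. The 10 genes and all gene and marker lists were chosen with earlier results of these data known.

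Lanes were put on a common scale with the 11 of 20 housekeeping probes that exceeded background in every lane, using their geometric mean. Background was set per lane as the mean of 8 negative control probes plus 2 SD, and the 655 of 750 probes exceeding it in 2 or more lanes were tested. One model of 13 group means was fitted with edgeR 4.0.16 (quasi-likelihood, R 4.3.3), with Benjamini-Hochberg adjustment over the 655 probes in each of 14 comparisons. The common dispersion was 0.0406, with 20 residual degrees of freedom. In data simulated for the day 1 ruxolitinib comparison, 200 of 655 genes were changed. Of these, 54% of 2-fold and 90% of 4-fold changes were recovered. The simulation called 150 genes, against 18 in the measured data. Adjusted p-values are easier to pass when many genes change, so these shares can overstate recovery here. The replicate numbers were not taken as pairs. Same-numbered drug and vehicle mice deviated together with a correlation over 0.1 in 4 of 12 pairs. The deviations of 2 vehicle mice from their mean are equal and opposite, so this count cannot show whether mice were paired.

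The rule for named genes was all 10 genes, genes that passed the test from the lists of other pathway genes, regulators and receptors, and up to 5 further genes of those lists with the largest day 1 change after ruxolitinib. Cell type markers were outside this rule, and those with values were named after these were seen. Alternatives were other scalings, DESeq2 1.42.0, limma 3.58.1 on log2(normalised count + 1), other filters, fits of only the groups compared, pooled vehicles, the replicate number as a block, and lanes left out.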

Additional observations from a re-analysis of the deposited data

How the results depend on the processing

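The number of genes called was 0 of 10 in each of 14 comparisons, and 0 remained under edgeR's TMM scaling, total count scaling, DESeq2, limma, limma after background subtraction, no filter, the fit without the 2 lanes under 30000 counts and the replicate block, and with pooled vehicles in the 13 comparisons this changes. Calls were rare over all tested probes too. The model of all groups called 73 of 9170 probe and comparison pairs. Among these alternatives the calls ran from 25 of 9170 in limma after background subtraction to 76 of 9170 with TMM scaling. No filter gave 69 of 10500 and pooled vehicles 207 of 8515. With the replicate number as a block, the median of the 10 genes on day 1 of ruxolitinib was -0.425. The count became 1 for ruxolitinib on day 1 with a filter on a mean count of 20 (Psmb8, adjusted p = 0.0473, edgeR; range over the alternatives other than single mice left out 0.00501 to 0.394), where 16 of 396 tested probes passed. It became 5 for ruxolitinib on day 1, 2 for venetoclax minus ruxolitinib on day 1 (Psmb8 and Tap2) and 1 for the 3-day mean of ruxolitinib (Nlrc5) when only the groups compared were fitted. In those fits 77, 61 and 15 of the 655 tested probes passed, against 18, 11 and 8 in the model of all groups. Vehicle against untreated gave 1 (Tap2) with all 20 housekeeping probes, where 5 of 655 probes passed, and 0 to 1 with single mice left out.

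Of the changes on day 1 of ruxolitinib, Psmb8, Tap1, Tap2, Tapbp, Psmb9, H2-T23 and Nlrc5 were below 0 under each alternative and with each mouse left out, and the median of the 10 genes ran from -0.312 with pooled vehicles to -0.542 in DESeq2, and from -0.501 to -0.388 with single mice left out. H2-K1 turned to 0.00714 with pooled vehicles, and Psmb10 ran from -0.0414 to 0.421 with single mice left out. Small venetoclax changes on day 1 turned in sign. Tap1 was -0.0357 with total count scaling, -0.0166 with all 20 housekeeping probes, -0.0134 in limma after background subtraction, -0.0756 with pooled vehicles and -0.0804 without the 2 shallow lanes. Psmb9 was -0.055 with total count scaling, -0.0499 in limma after background subtraction and -0.118 with pooled vehicles. Without the shallow lanes Psmb10 was -0.0382 and H2-K1 0.0833. H2-D1 was 0.0132 with total count scaling and Nlrc5 -0.0179 with pooled vehicles.

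With single mice left out, the venetoclax changes ran from -0.0804 to 0.201 for Tap1, -0.105 to 0.191 for Psmb9, -0.0589 to 0.754 for Psmb10, -0.191 to 0.0834 for H2-K1, -0.23 to 0.157 for H2-D1 and -0.0552 to 0.51 for Nlrc5. In the difference between the drugs, Psmb10 was -0.0686 with total count scaling, -0.409 with pooled vehicles and -0.205 without the shallow lanes, H2-K1 was -0.00278 and -0.346 with total count scaling and pooled vehicles, Tapbp was -0.0255 with total count scaling and Psmb9 -0.0148 with pooled vehicles. With single mice left out it ran from -0.226 to 0.586 for Psmb10 and -0.313 to 0.0742 for H2-D1. The cause of these turns was not tested. In limma after background subtraction Tap2 was -1.37 on day 3 of ruxolitinib and -0.602 in vehicle against untreated, and without replicate 2 of ruxolitinib on day 7 the median of the 10 genes there was 0.00287. Total count scaling moved the median of all tested probes on day 1 of ruxolitinib from 0.13 to 0.25.

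Groups of 3 and 2 mice, and raw counts as low as 5 for Tap2 and Nlrc5 and 6 for Psmb10, set the depth behind these values.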
